A study of Mus musculus with 16 samples.

Results

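The genes described here encode the enzymes that make cholesterol and fatty acids, together with the proteins that sense sterols and switch these enzymes on. They were taken as a list of 34 genes named by function, although the list was chosen with earlier results of these data known. Each gene was read from the probe set that was assigned to it alone and had the highest mean signal over the 16 arrays. Of the 34 genes, 33 had such a probe set and Acat2 had none in the annotation used, and all 33 passed the filter on dim genes, among 14286 genes tested of 18194 measured. The sterol branch held 23 of them, with 6 genes of the mevalonate part, 11 genes from squalene to cholesterol and 6 genes of sterol sensing and transport, and the fatty acid branch held 10. All values are log2 signals of a probe set, so a difference of 1 is a 2-fold difference, and signals were compared between arrays and never between genes.

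Cells were sorted from mouse tail epidermis. Basal cells of the interfollicular epidermis (IFE), the skin surface between hair follicles, came from K14CREER/Rosa-SmoM2-YFP mice of mixed strain background. In these mice tamoxifen lets a Cre recombinase driven by keratin 14, a gene of basal epidermal cells, switch on SmoM2, an always active form of the hedgehog transducer Smoothened that gives tumours resembling basal cell carcinoma. The groups were untreated IFE cells (IFE control, 3 arrays) and SmoM2 IFE cells 3 days (1 array), 1 week (3 arrays), 4 weeks (3 arrays) and 10 weeks (2 arrays) after tamoxifen. A further group carried SmoM2 and floxed β-catenin alleles and was sorted 4 weeks after tamoxifen (β-catenin loss, 2 arrays), and no group lost β-catenin without SmoM2. Bulge and outer root sheath cells of the hair follicle came from K19CREERT2/Rosa-SmoM2-YFP mice, in which the recombinase is driven by keratin 19, either untreated (bulge control, 1 array) or 4 weeks after tamoxifen (bulge SmoM2, 1 array). Age and sex of the mice are not given in the labels. SmoM2, tamoxifen, the time since it and the sort for SmoM2-positive cells came together in every treated group and cannot be told apart, and neither can cell type and Cre driver in the bulge groups. The source label of the bulge control speaks of SmoM2-positive cells although its title says that no tamoxifen was given, and the title was followed.

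Cholesterol is built from acetyl-CoA through mevalonate, isoprenoid units and squalene, and fatty acids are built from the same acetyl-CoA by carboxylation, chain synthesis, elongation and desaturation. Both routes are switched on by the SREBP transcription factors, which SCAP carries to the Golgi for cleavage when sterols are low and which INSIG proteins hold back when sterols are high. In the epidermis the products supply membranes, the lipid barrier and sebum, and cholesterol also acts on Smoothened and Patched in hedgehog signalling.

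The hedgehog targets Gli1, Ptch1 and Hhip served as a check of the labels. Gli1 was at 5.73, 5.58 and 5.30 in the IFE controls, at 7.28 at 3 days, between 8.50 and 10.16 at 1 week and between 9.95 and 10.83 at 4 weeks. With β-catenin loss it was at 7.22 in replicate 1 and 9.56 in replicate 2. The bulge control had 9.89, next to 9.96 in bulge SmoM2, and its Ptch1 signal was 12.57, next to 12.78. Gli1 therefore separated every IFE array with SmoM2 from the controls, while Gli1 and Ptch1 were close between the 2 bulge arrays. Hhip was not, with 10.64 for the bulge array with SmoM2 against 7.67 for its control. In the IFE it was at 5.09 to 7.12 in the controls and 8.84 to 11.19 at 4 weeks but overlapped the controls at 1 week and with β-catenin loss. The 3 control, 1-week and 4-week arrays that share a replicate number deviated together over all genes (same-number correlations of 0.34 to 0.70 over 9 pairs). Y-linked genes, averaged over 3 of them, had signals of 3.41, 8.18 and 3.43 among the IFE controls and of 8.41, 7.58 and 6.02 among the 4-week arrays, so Y-linked signal was not balanced between these groups. Nothing in the labels ties a replicate to a mouse of its own, and p-values then measure the spread between these samples, which may be technical. These are bulk samples, so fewer cells of a type and less RNA per cell cannot be told apart.

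Hmgcs1 encodes the cytosolic enzyme that makes HMG-CoA for the mevalonate route and is a textbook SREBP target. Its promoter window is shown because it was the only one among the 37 windows of 28 listed genes that held the searched sterol element. The window, from RefSeq on GRCm38.p6, covers the 250 bases before the start of the gene on the plus strand (chr13:119690101-119690350), with the sterol element TCACNCCAC and the CCAAT box in capitals.
Hmgcs1: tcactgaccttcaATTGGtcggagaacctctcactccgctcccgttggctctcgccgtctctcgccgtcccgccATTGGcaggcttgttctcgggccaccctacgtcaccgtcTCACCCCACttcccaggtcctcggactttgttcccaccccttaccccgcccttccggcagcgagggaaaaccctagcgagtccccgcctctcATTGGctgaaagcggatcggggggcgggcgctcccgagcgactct
The sterol element starts 137 bases before the start of the gene, and 3 CCAAT boxes, all on the opposite strand, start 237, 176 and 45 bases before it. Of all 32851 windows of this length, 1.05% held TCACNCCAC on either strand and 33.8% held CCAAT on either strand. CCAAT was in 23 of the 37 windows of listed genes, namely in 19 of 28 of the sterol branch and 4 of 9 of the fatty acid branch. Neither the GLI motif GACCACCCA nor the TCF/LEF motif ATCAAAG was in any of the 37 windows, against 0.225% and 3.21% of all windows. No window was available for Fads1, Scd2, Stard4, Fdps, Sqle and Fdft1, so these genes were not searched for any motif. None of these motifs contains another, and a match or its absence describes these letters in this window and no more.

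Over the 8 groups, IFE control had the lowest group mean for 10 of the 33 genes and the highest for 1, and the single 3-day array had the highest for 12 and the lowest for none. β-catenin loss and bulge control each had the lowest mean for 9 genes. The same counts over all genes tested are not given here. A group of 1 or 2 arrays is averaged less than a group of 3 and reaches an extreme mean more readily, so these counts describe no trait of the 33 genes. The difference from IFE control of the median sterol gene was 0.60 at 3 days, 0.16 at 1 week, 0.05 at 4 weeks and 0.10 at 10 weeks, while that of the median fatty acid gene was 0.52, 0.54, 0.57 and 0.19. The median over all genes tested lay at 0.02, 0.00, -0.05 and -0.06 in the same comparisons. Between arrays of a group, the branch medians had a pooled SD of 0.20 in the sterol branch and 0.36 in the fatty acid branch. Taken within replicate numbers, each array's fatty acid median was above that of the control of the same number by 0.70, 0.49 and 0.51 at 1 week and by 0.60, 0.28 and 0.64 at 4 weeks. The sterol median differed by 0.28, 0.08 and 0.34 at 1 week and by -0.10, 0.03 and 0.50 at 4 weeks. The size of the fatty acid medians rested on single arrays. That at 1 week was 0.18 without 1-week replicate 1 and 0.85 without 1-week replicate 2, and that at 4 weeks was 0.32 without control replicate 2 and 0.35 without 4-week replicate 1. That at 3 days was 0.87 without control replicate 1. That at 10 weeks was 0.42, 0.05 and 0.02 without control replicates 1, 2 and 3 and 0.01 without 10-week replicate 1. That of β-catenin loss against SmoM2 alone was -0.36 without 4-week replicate 1 and -0.21 without β-catenin loss replicate 1, and that against control was -0.01 without control replicate 3 and 0.16 and 0.01 without β-catenin loss replicates 1 and 2.

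**Figure D1:**
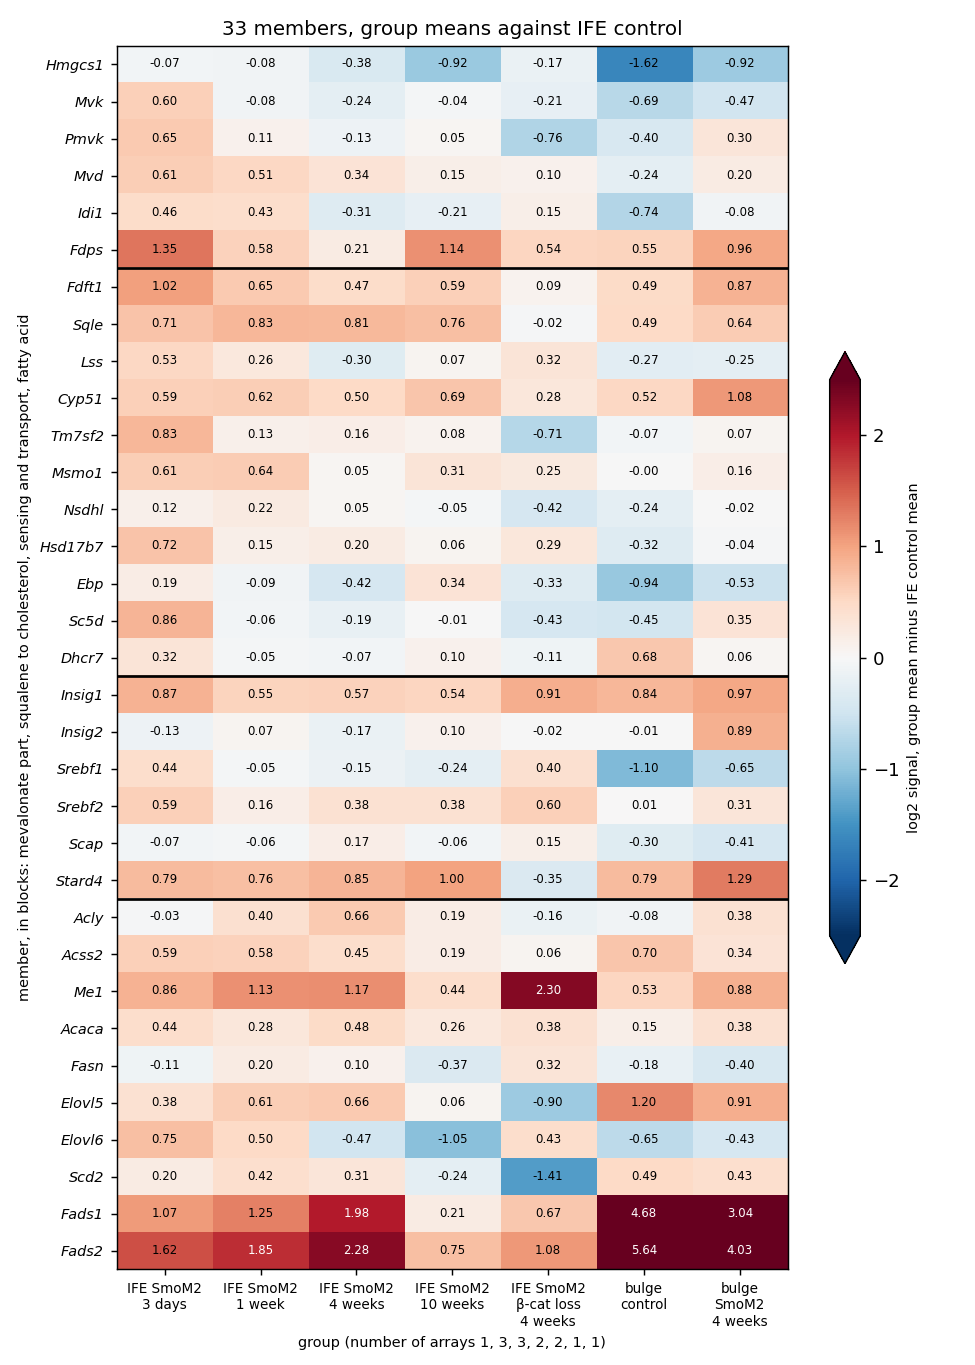
Heat map of the 33 genes (rows, in 4 blocks from the mevalonate part at the top to the fatty acid branch at the bottom) by group (columns), where colour and number give the group mean minus the IFE control mean in log2 signal. Fads1 and Fads2 in the bottom rows differ most, by 4.68 and 5.64 in the bulge control, and the 3-day column is positive for 28 of 33 genes.

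**Figure D2:**
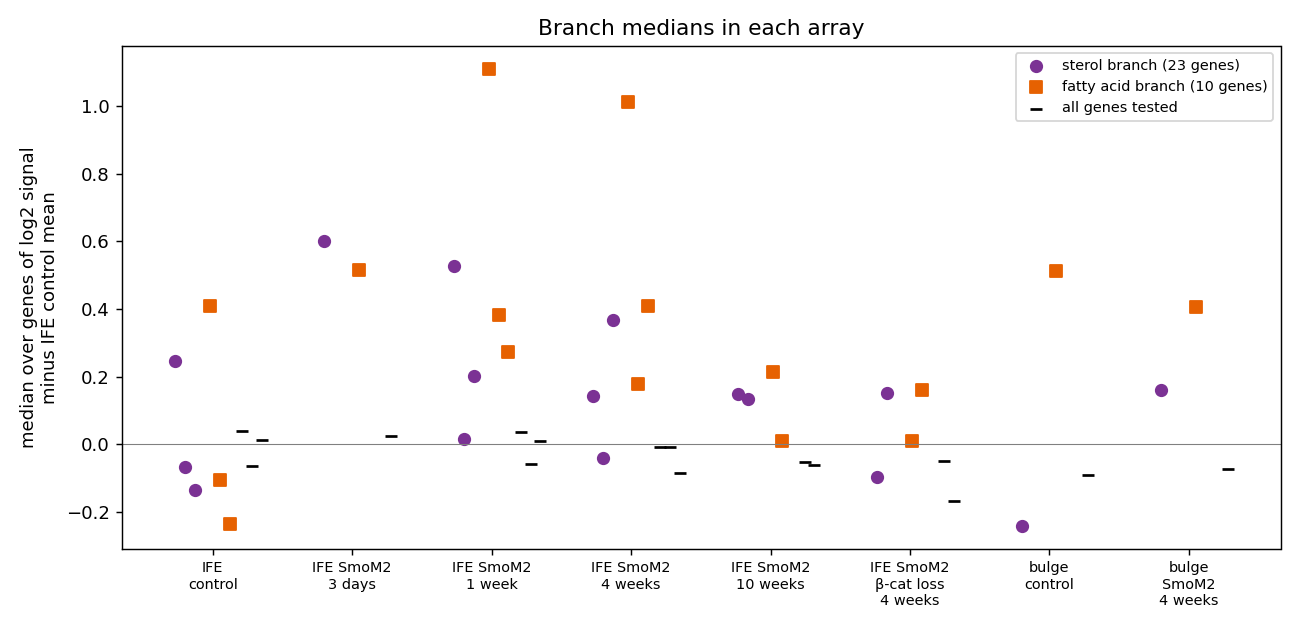
Median over the genes of each branch (circles, 23 sterol genes; squares, 10 fatty acid genes) and over all genes tested (dashes) of the log2 signal minus the IFE control mean, 1 symbol per array, by group. The squares of 1-week and 4-week replicate 1 stand at 1.11 and 1.01, above the other arrays, and IFE control replicate 1 stands above the other controls in both branches.

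At 3 days after tamoxifen the sterol branch stood above control almost throughout, but no gene passed the test. The difference was positive for 20 of 23 sterol genes and 8 of 10 fatty acid genes, against 53.1% of all genes tested. All 11 genes from squalene to cholesterol were above the control mean, with a median of 0.61. Differences were tested with limma over the 14 IFE arrays, with p-values adjusted over all genes tested and a threshold of 0.05 on the adjusted p. At 3 days 0 of 33 genes passed, where the percentage of all genes tested that passed was 0, and at an unadjusted p under 0.05 stood 4 of the 33, all higher, beside 159 genes higher and 63 lower among all. These 4 were Insig1, which holds SREBP back (0.87 ± 0.33 SE), Fdft1, which makes squalene (1.02 ± 0.39), Fdps, which makes farnesyl diphosphate (1.35 ± 0.54), and Tm7sf2, a sterol C14 reductase (0.83 ± 0.35), each with an adjusted p near 1. In the fatty acid branch the lowest unadjusted p-values were those of Fads2 (1.62 ± 0.95), Fads1 (1.07 ± 0.63) and Me1 (0.86 ± 0.52), of 0.115, 0.116 and 0.122. The group is 1 array, assumed to vary like the others. Other lipid lists stood high on the same array. Of 18 sphingolipid and barrier lipid genes 16 were above control (median 0.57), and of 11 sebaceous gland markers 10 were (median 0.51), with a summed level of 14.22 against 13.77 to 14.22 in the controls. These lists are not separate, since both hold Elovl3 and Fa2h. The sebaceous markers Dgat2, Plin2 and Acsl5 also stand in other lipid lists used here. The part of such genes in the 3-day values was not tested.

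At 1 week after tamoxifen all 10 fatty acid genes and 16 of 23 sterol genes had positive differences, against 49.1% of all genes, and again none of the 33 passed. The percentage called among all genes was 0 here too, with 441 genes higher and 236 lower at an unadjusted p under 0.05. Of the 33, 7 were higher at that unadjusted level. In the fatty acid branch they were Me1, the malic enzyme that supplies NADPH (1.13 ± 0.37, adjusted p 0.618), and the desaturases Fads1 (1.25 ± 0.44, adjusted p 0.747) and Fads2 (1.85 ± 0.67, adjusted p 0.755). In the sterol branch they were Stard4, a cytosolic sterol carrier (0.76 ± 0.29, adjusted p 0.850), Insig1 (0.55 ± 0.23, adjusted p 0.945), Cyp51, the lanosterol demethylase (0.62 ± 0.26, adjusted p 0.950), and Fdft1 (0.65 ± 0.28, adjusted p 0.970). Every 1-week array lay above every control for 7 of the 33 genes, where 4.63% of all genes tested did so. Those 7 were Fads1, Fads2, Me1, Insig1, Cyp51, Fdft1 and Msmo1, the sterol C4 methyl oxidase. Fads1 had 7.58, 7.93 and 8.26 on the 1-week arrays and 7.74 on the 3-day array. Fads2 had 7.21, 7.11 and 8.56 on the 1-week arrays and 7.39 on the 3-day array. Me1 had 10.06, 10.20 and 9.38 on the 1-week arrays and 9.61 on the 3-day array. In all 3 genes the 3-day array was already above every control and lay between the lowest and the highest 1-week array.

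At 4 weeks Fads1, the Δ5 desaturase of polyunsaturated fatty acid synthesis, rose 3.94-fold and was the only one of the 33 genes to pass the test. The 3 controls had signals of 6.58, 6.39 and 7.04, and the 4-week arrays 9.38, 8.39 and 8.18. Every 4-week array was above every control, replicate 1 the farthest. The difference was 1.98 ± 0.44 (SE) with an adjusted p of 0.0361 in limma. The percentage of all genes that passed was 3.24, with 349 higher and 114 lower. Without control replicate 1, 2 or 3 the adjusted p was 0.0989, 0.136 or 0.0834, and without 4-week replicate 1 or 2 it was 0.104 or 0.0726, with differences of 1.61 to 2.21 when any one array was left out. It was 0.0901 with Y-linked signal as a covariate, 0.0758 for the mean over its probe sets, where the difference was 1.11, 0.0553 without the filter on dim genes and 0.0935 with array weights.

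Fads2, the Δ6 desaturase encoded beside Fads1, had the larger difference at 4 weeks but missed the threshold. The controls had 5.88, 5.72 and 5.72 and the 4-week arrays 9.28, 7.59 and 7.26, again without overlap. Its difference was 2.28 ± 0.67 with an adjusted p of 0.100. For Me1 the controls had 8.77, 8.83 and 8.63 and the 4-week arrays 10.65, 8.99 and 10.08 (1.17 ± 0.37, adjusted p 0.123). The other probe set of Me1 gave a smaller difference of 0.48. Replicate 2 of the 4-week group was the lowest of the 3 for Me1, only just above the controls. Without it Me1 passed as well (1.62, adjusted p 0.0264), and likewise without the control, 1-week and 4-week arrays of replicate 2 (1.67, adjusted p 0.0390). The other genes of the route from citrate to palmitate differed less. Acly, which splits citrate into acetyl-CoA, differed by 0.66 ± 0.34, Acaca, the acetyl-CoA carboxylase, by 0.48 ± 0.23, Acss2, which makes acetyl-CoA from acetate, by 0.45 ± 0.40 and Fasn, the fatty acid synthase, by 0.10 ± 0.35. With the replicate number as a block Acly also passed at 4 weeks (adjusted p 0.0455) beside Fads1 (adjusted p 0.0424), and 873 genes passed in all.

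The sterol branch showed no common direction at 4 weeks, with positive differences in 13 of 23 genes. The lowest unadjusted p-values were those of Stard4 (0.85 ± 0.29, adjusted p 0.163), Insig1 (0.57 ± 0.23, adjusted p 0.257) and Cyp51 (0.50 ± 0.26, adjusted p 0.419). Of the 6 genes of the mevalonate part 4 lay below control. They were Hmgcs1 (-0.38 ± 0.38), Idi1, the isopentenyl diphosphate isomerase (-0.31 ± 0.43), Mvk, the mevalonate kinase (-0.24 ± 0.22), and Pmvk, the phosphomevalonate kinase (-0.13 ± 0.28). Every 4-week array lay above every control for 6 of the 33 genes, against 9.17% of all genes tested, and these were Fads1, Fads2, Me1, Acaca, Stard4 and Scap, the SREBP escort. The median sterol difference of 0.05 ranged from -0.16 to 0.19 when any one array was left out.

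At 10 weeks the desaturases were closer to control than at 4 weeks and a few sterol genes stood higher, and none of the 33 passed where 0.700% of all genes did. Fads1 was at 7.14 and 6.62 and Fads2 at 6.97 and 6.08, so Fads1 overlapped the controls, while both values of Fads2 lay above its controls, that of replicate 1 the farther. Me1, at 9.23 and 9.13, was above every control, and the bulge arrays had 9.27 and 9.62 for it. The 3 sterol genes with an unadjusted p under 0.05 were Stard4 (1.00 ± 0.33, adjusted p 0.212), Fdps (1.14 ± 0.43, adjusted p 0.306) and Cyp51 (0.69 ± 0.29, adjusted p 0.402), each with both 10-week arrays above every control, as for 8 of the 33 genes and 16.8% of all genes tested. With array weights these 3 passed, at adjusted p-values of 0.0123, 0.0135 and 0.0341, and with only the 2 groups in the fit Fdps passed at 0.0272. Hmgcs1 had the lowest difference of the branch (-0.92 ± 0.43, adjusted p 0.483). Its other 4 probe sets gave smaller ones, of -0.53 to -0.32, and for 10 weeks against 4 weeks they were positive (0.16 to 0.69) where the probe set used gave -0.54. In the fatty acid branch the lowest p-values were those of Elovl6, which extends palmitate to stearate (-1.05 ± 0.87, adjusted p 0.816), Me1 (0.44 ± 0.41, adjusted p 0.843) and Fads2 (0.75 ± 0.75, adjusted p 0.856).

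Between time points of SmoM2 no gene of the 33 and none of all genes tested passed, so the percentage called was 0 for 4 weeks against 1 week and 0 for 10 weeks against 4 weeks. From 1 to 4 weeks, where 439 genes were higher and 249 lower at an unadjusted p under 0.05 but none of the 33, the mevalonate part was lower in 6 of 6 genes with a median of -0.27. The lowest p-values were those of Msmo1 (-0.59 ± 0.32, adjusted p 0.998), Idi1 (-0.75 ± 0.43, adjusted p 0.998), Scap (0.23 ± 0.14, adjusted p 0.998) and, in the fatty acid branch, Fads1 (0.72 ± 0.44, adjusted p 0.998), Elovl6 (-0.98 ± 0.78, adjusted p 0.998) and Acaca (0.20 ± 0.23, adjusted p 0.998). From 4 to 10 weeks all 10 fatty acid genes had negative differences on the probe sets used, with a median of -0.57, against 46.3% positive among all genes. The median was -0.26 without 4-week replicate 1, and other probe sets of Scd2 (0.91 and 0.98) and Acly (0.60 and 0.01) gave positive values. Those of Elovl6 (0.003 and 0.02) and Me1 (0.0008) showed almost no difference. Fads1 differed by -1.77 ± 0.50 (adjusted p 0.769), Fads2 by -1.52 ± 0.75 (adjusted p 0.794) and Me1 by -0.73 ± 0.41 (adjusted p 0.825). Both 10-week arrays lay below every 4-week array for 6 of the 33 genes, where 13.5% of all genes tested did so. These were Fads1, Fads2, Fasn, Scd2, Elovl5, which extends polyunsaturated fatty acids, and Scap. In the sterol branch Ebp, the sterol isomerase, had the lowest p (0.76 ± 0.29, adjusted p 0.794), before Fdps (0.93 ± 0.43, adjusted p 0.794) and Scap (-0.24 ± 0.16, adjusted p 0.846). At an unadjusted p under 0.05 stood Ebp, higher, and Fads1, lower, beside 421 genes higher and 472 lower. The controls, 1-week and 4-week arrays serve in several of these comparisons, which are not independent.

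**Figure D3:**
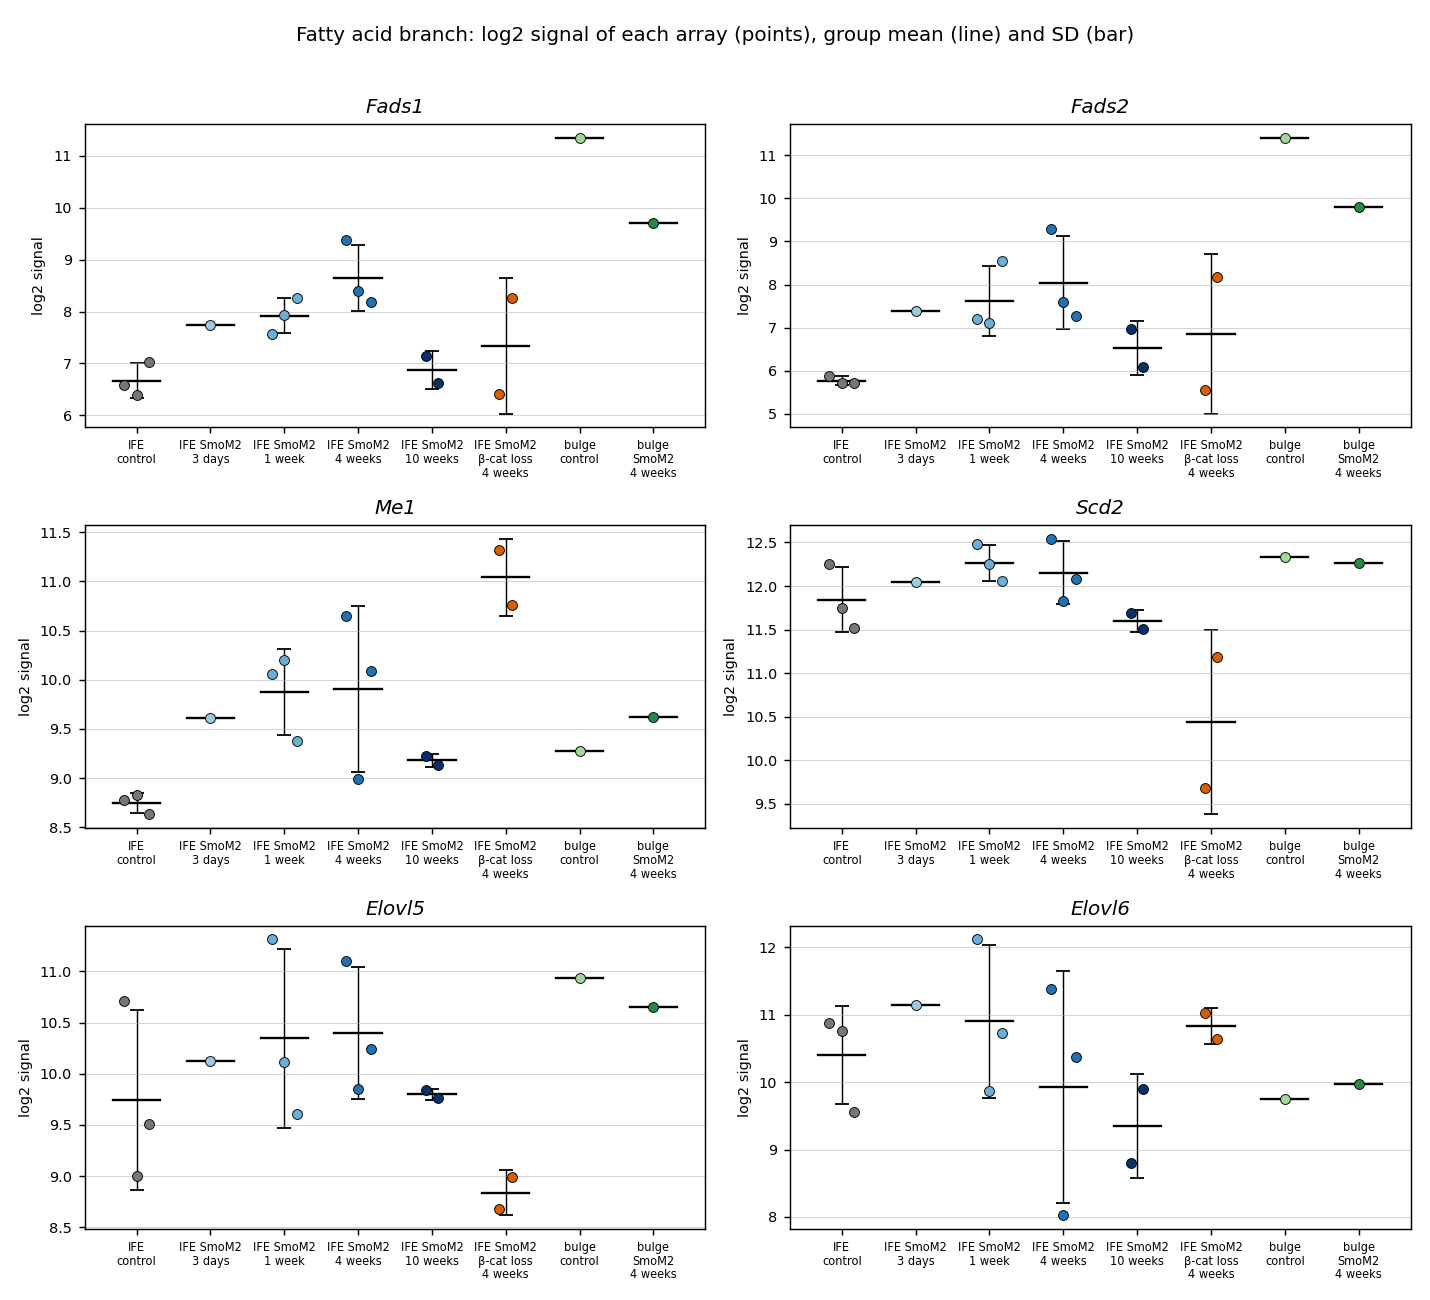
Log2 signal of 6 fatty acid genes in every array (points) with group mean (line) and SD (bar, where a group has more than 1 array), by group on the horizontal axis. Fads1 and Fads2 stand highest in the bulge control (11.35 and 11.41), Me1 highest with β-catenin loss (11.32 and 10.76), and Scd2 lowest there (9.69 and 11.18).

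Loss of β-catenin together with SmoM2 was set against SmoM2 alone at 4 weeks, which asks how far levels under SmoM2 depend on β-catenin. Scd2, the stearoyl-CoA desaturase that makes monounsaturated fatty acids, fell 3.29-fold. SmoM2 alone gave signals of 12.54, 11.83 and 12.08, and the β-catenin loss arrays 9.69 and 11.18. Both arrays lay below all others of the series, and they differed from each other by more than any other pair within a group. The difference was -1.72 ± 0.39 with an adjusted p of 0.0452, the only call among the 33, where 2.23% of all genes passed. Without β-catenin loss replicate 1 it was -0.97 (adjusted p 0.389), and without 4-week replicate 1, 2 or 3 the adjusted p was 0.0963, 0.0591 or 0.0732. The other 2 probe sets of Scd2 gave -0.49 and 1.05, and the mean over the probe sets -0.38 (adjusted p 0.710). The adjusted p was also 0.0510 with median centring, 0.0577 without the filter on dim genes, 0.0748 with array weights, 0.178 with only these groups in the fit and 0.0974 with Y-linked signal as a covariate.

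The fatty acid branch was lower in 7 of 10 genes under β-catenin loss, with a median of -0.60, and the sterol branch in 11 of 23, with a median of 0.02. With the mean over probe sets the fatty acid median was -0.13. The share of all genes that were lower is not given here. Against the IFE control mean, the median over all genes tested was -0.05 and -0.17 with β-catenin loss and -0.09 to -0.01 with SmoM2 alone at 4 weeks. Elovl5 was at 8.682 and 8.996 against 11.10, 9.85 and 10.24 (-1.56 ± 0.55, adjusted p 0.168). Stard4 was at 6.55 and 7.15 against 8.12, 8.02 and 8.02 (-1.20 ± 0.33, adjusted p 0.0775). Tm7sf2 was at 6.68 and 6.77 against 7.66, 7.58 and 7.54 (-0.87 ± 0.27, adjusted p 0.123). In these 3 genes the groups did not overlap. Both arrays lay below all 3 of SmoM2 alone for 5 of the 33 genes, namely these, Scd2 and Pmvk, while 17.6% of all genes tested did so. Me1 (1.13 ± 0.41, adjusted p 0.174) and Srebf1, which encodes the SREBP that favours fatty acid genes (0.55 ± 0.23, adjusted p 0.247), stood higher without overlap, as did 11.1% of all genes tested. With the replicate number as a block Acly, Elovl5, Stard4 and Tm7sf2 passed beside Scd2, at adjusted p-values of 0.0131 to 0.0363. However, the replicate numbers of the β-catenin loss arrays did not pair them with the other groups (correlations of -0.18 to 0.12 with 10 weeks or β-catenin loss). With the experiment number of the labels as the block the same genes passed, at adjusted p-values of 0.0182 to 0.0366. Whether experiment numbers pair the arrays was not checked. Fads1 and Fads2 differed between the 2 arrays of this group. They were at 6.42 and 5.55 in replicate 1, Fads1 within the controls and Fads2 below them, and at 8.26 and 8.17 in replicate 2, both within the range of SmoM2 alone. Without replicate 2 Fads1 passed as well (-2.23, adjusted p 0.0476). Gli1 was the lower in replicate 1 as well, as given above, and so was the summed level of 6 dermal fibroblast markers (8.37 against 10.59). Their part in these values was not tested.

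Against untreated IFE, β-catenin loss with SmoM2 showed a 4.91-fold rise of Me1. Its signals of 11.32 and 10.76 were above every other array of the series, against 8.63 to 8.83 in the controls. The difference was 2.30 ± 0.41 with an adjusted p of 0.0433, the only call among the 33, where 0.371% of all genes passed. Its adjusted p was 0.145, 0.0936 or 0.120 without control replicate 1, 2 or 3, and 0.296 or 0.0658 without β-catenin loss replicate 1 or 2, with differences of 2.02 to 2.57. It was 0.115 for the mean over its 2 probe sets, 0.0675 with median centring, 0.0534 without the filter and 0.0626 with Y-linked signal as a covariate. Next in the fatty acid branch came Scd2 (-1.41 ± 0.39, adjusted p 0.134). Without β-catenin loss replicate 2, Scd2 passed at 0.0371. In the sterol branch the lowest p-values were those of Insig1 (0.91 ± 0.26, adjusted p 0.139), Tm7sf2 (-0.71 ± 0.27, adjusted p 0.258) and Pmvk (-0.76 ± 0.31, adjusted p 0.292). Of 11 sebaceous gland markers 10 were higher with β-catenin loss than with SmoM2 alone (median 1.63, none past the threshold), and their summed level was 14.10 to 14.53, against 13.08 to 14.29 with SmoM2 alone and 13.77 to 14.22 in the controls. Their part in the Me1 value was not tested.

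The largest differences of all 33 genes lay between cell types. Fads1 was at 11.35 in the bulge control, 25.6-fold above the IFE control mean, and Fads2 at 11.41, which was 49.7-fold above. No IFE array, with or without SmoM2, reached either value, the highest being 4-week replicate 1 at 9.38 and 9.28. All 3 probe sets of Fads2 showed it (5.64, 4.60 and 4.56), and the second probe set of Fads1 gave 1.05. With 1 bulge array there is no replicate check in this comparison. Of the 33 genes 5 differed at least 2-fold, where 12.9% of all genes tested did. Besides these they were Elovl5, higher (1.20), and Hmgcs1 (-1.62) and Srebf1 (-1.10), lower. The median fatty acid gene was 0.51 higher and the median sterol gene lower by a difference of -0.24. Sebaceous gland markers were low in this array, 9 of 11 at least 2-fold below the IFE control, with a summed level of 12.15 against 13.08 to 14.53 in all other arrays.

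In the bulge 4 weeks after tamoxifen, Fads1 and Fads2 were lower than in the bulge control, at 9.71 and 9.80, by differences of -1.64 and -1.61. They were the only 2 of the 33 genes that differed at least 2-fold, where 6.94% of all genes did, and the comparison rests on 1 array a side. The sterol branch was higher in 21 of 23 genes, with a median of 0.38, and all 6 mevalonate genes were higher, Hmgcs1 by 0.71 and Pmvk by 0.69. Against the IFE control mean the sterol median was -0.24 in bulge control and 0.16 in bulge SmoM2. The median over all genes tested was -0.09 and -0.07 on the same arrays. The share of all genes that were higher in bulge SmoM2 is not given here, and these counts have no replicate check. Insig2, the second INSIG, differed most among sterol genes (0.90), and Dhcr7, which completes cholesterol, lay lower (-0.63). The fatty acid branch was higher in 4 of 10. Beside these values the summed sebaceous level was 13.86 against 12.15 and the suprabasal one 15.07 against 13.70, and their part in them was not tested. For Fads1 the SmoM2 difference in the bulge was lower than that in the IFE by -3.62 ± 0.89 (unadjusted p 0.00166, adjusted p 0.207 in limma over 16 arrays, in which the lone bulge arrays are assumed to vary like the IFE groups), and for Fads2 by -3.89 ± 1.34 (unadjusted p 0.0139, adjusted p 0.424). Neither passed the adjusted threshold, which 0% of all genes passed. At an unadjusted p under 0.05 in the same limma fit stood 1020 genes, or 7.14% of all genes tested. These 2 were the only ones of the 33 among them, a count near that share.

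**Figure D4:**
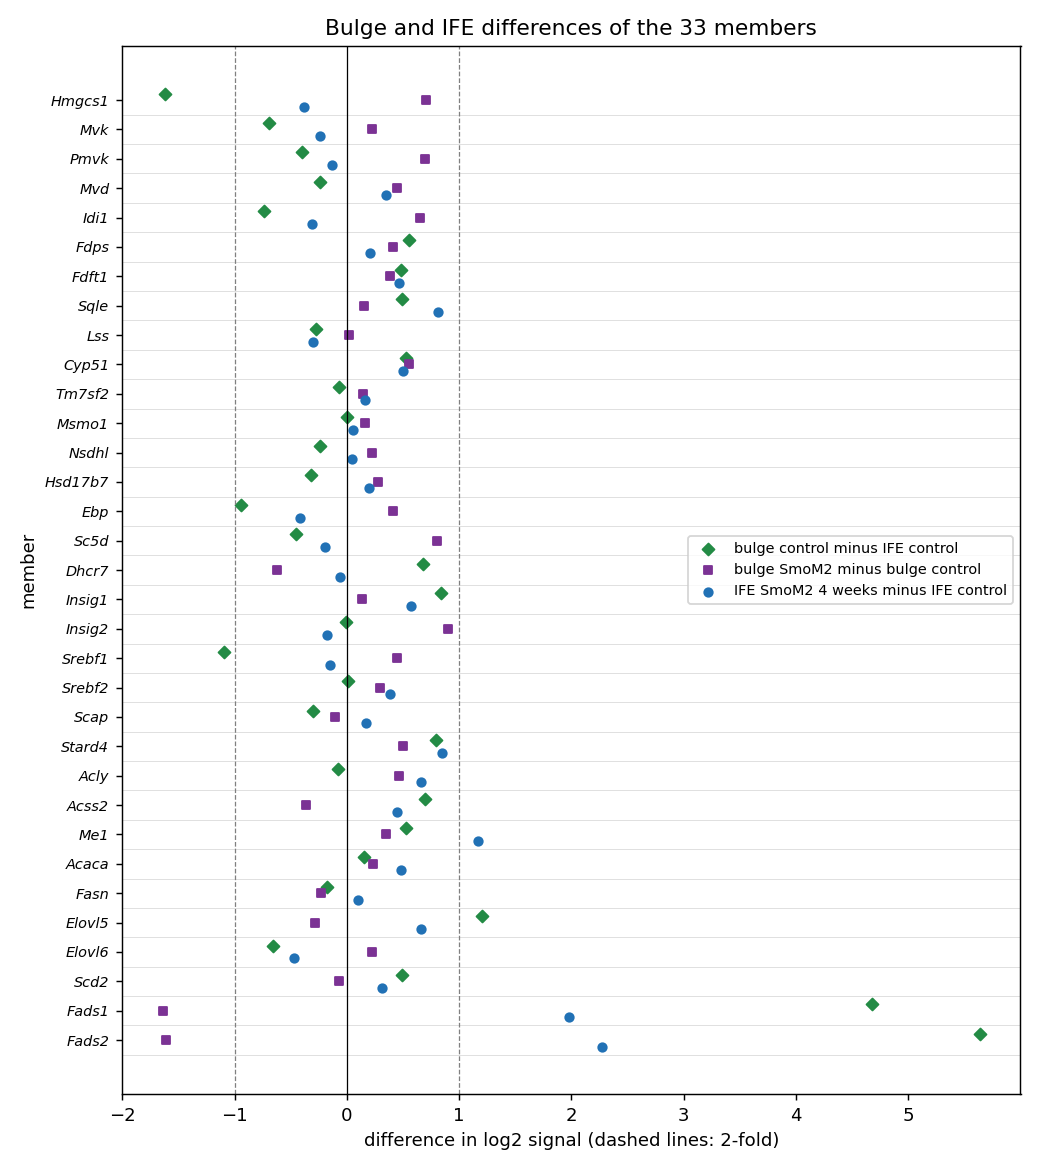
Differences in log2 signal (horizontal axis, dashed lines at 2-fold) of each of the 33 genes for bulge control minus IFE control (diamonds), bulge SmoM2 minus bulge control (squares) and IFE SmoM2 at 4 weeks minus IFE control (circles). For Fads1 and Fads2 the diamonds lie at 4.68 and 5.64, the circles at 1.98 and 2.28, and the squares on the other side of 0, at -1.64 and -1.61.

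The sterol genes that varied most over the groups were Stard4, Hmgcs1 and Tm7sf2. Hmgcs1 was at 13.19, 12.70 and 12.20 in the IFE controls, 12.63 at 3 days, 13.22, 12.24 and 12.38 at 1 week and 13.16, 11.65 and 12.13 at 4 weeks. The 10-week arrays had 11.81 and 11.74, the β-catenin loss arrays 12.48 and 12.57, bulge control 11.07 and bulge SmoM2 11.78. Both 10-week arrays and both bulge arrays lay below every IFE control, as did 4-week replicates 2 and 3, and replicate 1 was the highest in each of the control, 1-week and 4-week groups. Stard4 was at 7.74, 6.90 and 6.97 in the IFE controls, 7.99 at 3 days, 8.40, 8.07 and 7.40 at 1 week, and 8.32 and 8.09 at 10 weeks, and bulge control had 7.99 and bulge SmoM2 8.49. Its SmoM2 groups at 4 and 10 weeks lay above the controls without overlap, while replicate 1 of β-catenin loss was the lowest of the series. Tm7sf2 was at 7.64, 7.70 and 6.96 in the IFE controls, 8.26 at 3 days, 7.92, 7.64 and 7.12 at 1 week, and 7.39 and 7.63 at 10 weeks, and bulge control had 7.36 and bulge SmoM2 7.51. Only its β-catenin loss arrays fell outside the range of the other groups on the low side, and the 3-day array on the high side.

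**Figure D5:**
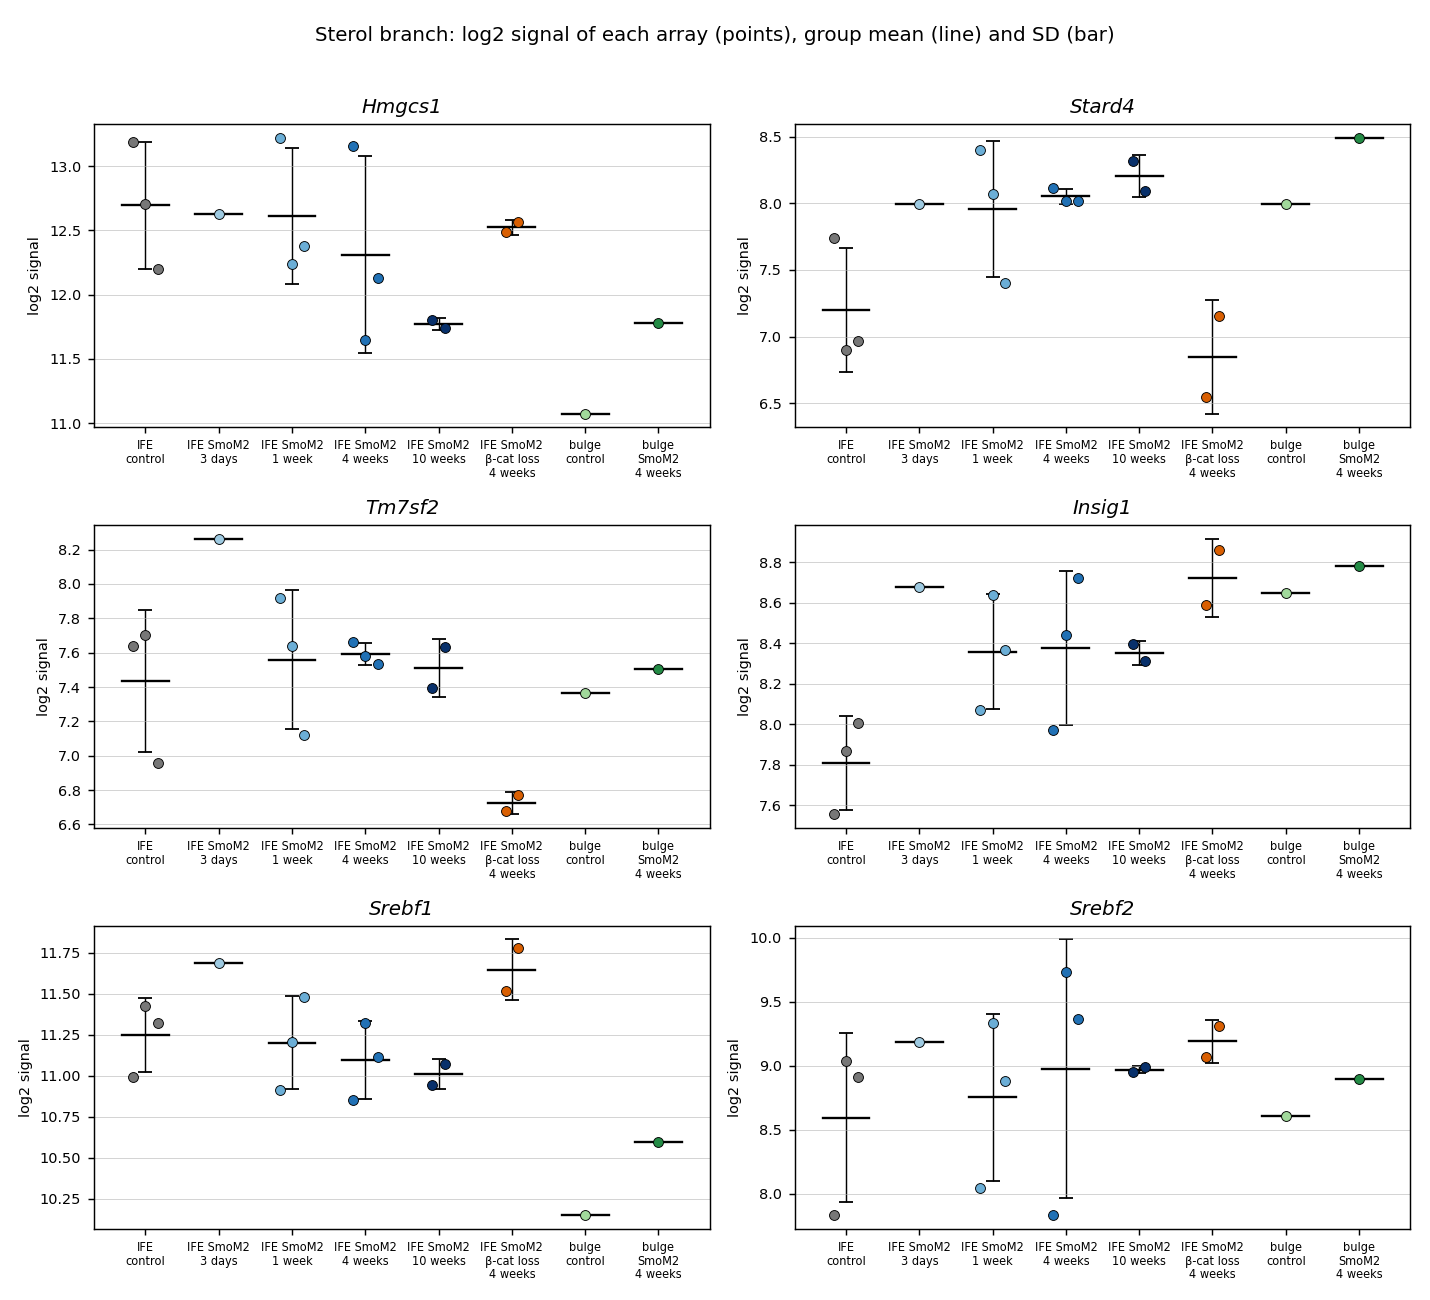
Log2 signal of 6 genes of the sterol branch in every array (points) with group mean (line) and SD (bar, where a group has more than 1 array), by group on the horizontal axis. Stard4 and Tm7sf2 are lowest with β-catenin loss, Hmgcs1 and Srebf1 lowest in the bulge control (11.07 and 10.15), and Srebf2 is lowest in replicate 1 of the control, 1-week and 4-week groups.

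Among the regulators, Insig1 was lowest in untreated IFE cells. It was at 7.555, 7.870 and 8.004 in the IFE controls, 8.68 at 3 days, 8.07, 8.64 and 8.37 at 1 week, 7.97, 8.44 and 8.72 at 4 weeks and 8.40 and 8.31 at 10 weeks. The β-catenin loss arrays had 8.59 and 8.86, bulge control 8.65 and bulge SmoM2 8.78. Every array outside the control group was above every control, except 4-week replicate 1. Srebf1 was at 10.99, 11.42 and 11.32 in the IFE controls, 11.68 at 3 days, 10.91, 11.20 and 11.48 at 1 week, 10.85, 11.32 and 11.11 at 4 weeks, 10.94 and 11.07 at 10 weeks and 11.52 and 11.78 with β-catenin loss. The bulge arrays, at 10.15 and 10.59, were the lowest of the series. Srebf2, which encodes the SREBP that favours sterol genes, was at 7.84, 9.03 and 8.91 in the IFE controls, 9.18 at 3 days, 8.05, 9.33 and 8.88 at 1 week, 7.83, 9.73 and 9.37 at 4 weeks, 8.95 and 8.99 at 10 weeks and 9.07 and 9.31 with β-catenin loss, and bulge control had 8.60 and bulge SmoM2 8.90. Its lowest 3 values were the replicate 1 arrays of the control, 1-week and 4-week groups. Scap stayed between 10.65 in bulge SmoM2 and 11.30 at 4 weeks, and Insig2 reached 9.97 in bulge SmoM2.

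Several genes of this pathway had means that differed between replicate numbers across the control, 1-week and 4-week groups. Over these 9 arrays the mean of replicate 1 was 11.46 for Elovl6, against 9.55 for replicate 2 and 10.22 for replicate 3. Such means hide the spread within a number, as Elovl6 in the control, 1-week and 4-week arrays of replicate 2 was at 10.76, 9.87 and 8.02. Elovl5 had 11.04 against 9.65 and 9.79. Sqle, the squalene epoxidase, had 10.93 against 9.71 and 9.82, and Hmgcs1 had 13.19 against 12.20 and 12.24. Srebf2 ran the other way, with 7.91 against 9.37 and 9.05. Sc5d, the sterol C5 desaturase, was lowest in replicate 2 (7.23) and highest in replicate 3 (8.66). For Fads1 the 3 means were 7.85, 7.57 and 7.83, a spread of 0.27 between numbers, while its SD within the 4-week group was 0.64. The call of Fads1 came from these same arrays and favours a gene of small spread. Its small spread between numbers is therefore no separate support for that call. With the control, 1-week and 4-week arrays of replicate 1 left out together, Fads1 at 4 weeks differed by 1.57 (adjusted p 0.251), and with those of replicate 2 left out by 1.97 (adjusted p 0.185).

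The remaining sterol genes had narrower ranges of group means. Over single arrays, however, Idi1 (2.28), Sqle (2.17) and Lss (2.02) spanned more than Stard4 (1.95). The widest ranges of group means among them were those of Srebf1 (1.54), Pmvk (1.41), Fdps (1.35), Sc5d (1.31), Mvk (1.29) and Ebp (1.28). Mvd, the mevalonate diphosphate decarboxylase, had group means between 7.003 in the bulge control and 7.86 at 3 days, and Lss, which closes the sterol ring, between 8.30 at 4 weeks and 9.12 at 3 days. Msmo1 ranged over 0.64 and Nsdhl, a sterol dehydrogenase of C4 demethylation, also over 0.64. Hsd17b7, the sterone reductase of the same step, ranged over 1.04, Dhcr7 over 0.79 and Sqle over 0.85. Sqle was 0.83 ± 0.48 above control at 1 week and 0.81 ± 0.48 above at 4 weeks, with control replicate 1 (10.59) inside the range of the SmoM2 arrays. In the fatty acid branch Acaca had the smallest range (0.48), followed by Acss2 (0.70), Fasn (0.73) and Acly (0.82). Acaca and Acss2 had their lowest mean in IFE control, as had Fads1, Fads2 and Me1.

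Of the 33 genes 23 had 38 further probe sets above the filter. Their sign was that of the probe set used in 29 of 38 at 4 weeks, in 30 of 38 at 1 week and under β-catenin loss against SmoM2 alone, and in 20 of 38 for 10 weeks against 4 weeks. The brightest probe sets of Mvd, Lss, Fdft1, Hsd17b7, Acly and Elovl5 are of types that can bind more than 1 transcript, and with such probe sets left out the same 3 calls were made, at adjusted p-values of 0.0359 for Fads1, 0.0454 for Scd2 and 0.0423 for Me1. These 3 genes were not read from such probe sets, so their values did not change and this setting was no check of their calls.

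Neighbouring pathways, taken as lists, contributed 4 genes past the threshold. Scarb1, the HDL receptor that takes up cholesterol, rose at 4 weeks by 1.78 ± 0.32 (adjusted p 0.0200), from 6.55 to 7.66 in the controls to 8.42 to 9.14, and was the only 1 of 13 sterol uptake, efflux and storage genes to pass there, where 3.24% of all genes did. It kept its call in 15 of 21 alternatives. Lpin2, a phosphatidate phosphatase, rose by 1.37 ± 0.27 (adjusted p 0.0253), 1 of 10 glycerolipid genes, and kept its call in 14 of 21. Idh1, which supplies NADPH, rose by 1.45 ± 0.35 (adjusted p 0.0490), 1 of 6, and kept its call in 7 of 20. Npc1, which exports cholesterol from lysosomes, rose by 1.32 ± 0.24 (adjusted p 0.0491) under β-catenin loss against control, at 8.45 and 7.94 against 6.56 to 7.05, 1 of 13 where 0.371% of all genes passed, and kept its call in 6 of 20. No gene of the 18 of sphingolipid and barrier synthesis, 17 of fatty acid uptake and oxidation, 8 of SREBP processing or 7 of the isoprenoid branch passed in any of the 8 tested comparisons. Their lowest p-values at 4 or 10 weeks were those of Cers4, a ceramide synthase (-1.99 ± 0.55 at 10 weeks, adjusted p 0.136), Ppara, a nuclear receptor of fatty acid oxidation (-1.63 ± 0.49 at 10 weeks, adjusted p 0.171), Mbtps1, the site-1 protease that cleaves SREBP (-0.69 ± 0.23 at 10 weeks, adjusted p 0.217), and Coq2 of ubiquinone synthesis (-0.24 ± 0.17 at 10 weeks, adjusted p 0.762).

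Markers of other cells moved with several of these groups. The summed level of 6 dermal fibroblast markers was 9.31 to 9.51 in the IFE controls, 12.06 to 13.03 at 1 week, 10.86 to 12.63 at 4 weeks and 11.45 to 11.84 at 10 weeks. That of 9 suprabasal markers was 15.43 to 15.78 in the controls and 13.94 to 15.00 at 4 weeks, where 2 of the 9 passed the test, both lower. Of the sebaceous markers 1 of 11 was above control at 4 weeks (median -0.98) and 1 of 11 at 10 weeks (median -0.99). That of 9 hair follicle bulge and outer root sheath markers was 12.84 to 13.28 in the controls, 13.27 to 14.71 at 1 week, 13.94 to 14.88 at 4 weeks, 14.76 to 14.88 at 10 weeks and 13.27 to 14.03 with β-catenin loss, beside 14.19 and 14.18 in the bulge arrays, where Fads1 and Fads2 were highest. Single markers of this list did differ between bulge SmoM2 and bulge control. Cd34 (-2.89), Lgr5 (-1.27), Cdh3 (-1.26), Tcf7l1 (-0.42) and Lhx2 (-0.28) were lower in bulge SmoM2. Nfatc1 (2.13), Postn (0.67), Sox9 (0.65) and Krt17 (0.38) were higher. The summed level of 8 melanocyte markers was 10.57 to 12.83 in the controls and 8.91 to 9.13 with β-catenin loss. That of 10 immediate-early and dissociation stress genes was 14.35 to 14.83 in the controls, 14.34 to 15.47 at 4 weeks and 15.39 and 15.85 in the bulge arrays. Of 5 adipocyte markers measured only Retn passed the filter, with signals of 5.85 to 7.03, and Adipoq, Lep and Cidec were at or below 4.78 in every array. The part of other cells in the differences above was not tested.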

How the data were processed

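Total RNA of sorted cells was labelled with an Affymetrix kit for 3′ expression arrays, per the labels' protocols. The table that the authors deposited covers 45101 probe sets and 16 arrays, and its range of values marks a log2 scale. The submitters' processing notes name R 2.14.0. How the background was corrected, how arrays were normalized and how probes were summarised is not given in the sources used here. Precision is limited by how few arrays there are.

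Of the probe sets 34958 had 1 gene in the platform annotation and 34754 matched RefSeq by gene identifier, with 0 symbols changed. Genes above the 40th percentile in at least 2 of 16 arrays were tested (14286 of 18194). Group means over the 14 IFE arrays were fitted with limma 3.58.1 in R 4.3.3 (total degrees of freedom 11.6), with Benjamini-Hochberg adjustment over all genes tested. The script was tested on simulated data. Bulge arrays were compared by their difference, counted from 2-fold. A difference between bulge and IFE was tested over 16 arrays. A list's level is the log2 of its summed linear signals.

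Replicate numbers were checked by correlating deviations from group means. The numbers pair the control, 1-week and 4-week arrays (every one of 9 pairs between 0.34 and 0.70, other pairs between -0.532 and -0.00214) but not those of 10 weeks or β-catenin loss, so the main fit has no block. Deviations within a group cancel out in sum, so positive same-number correlations pull the other pairs down. The values of the other pairs are therefore no separate evidence of pairing. The members and lists were chosen with earlier results of these data known. Named are all members, with full statistics for those past the threshold and otherwise the 3 of lowest p in each branch, values in every array for the 3 widest ranging of each branch and 3 regulators, and from each related list the members past the threshold or the 1 of lowest p at 4 or 10 weeks. Elovl5, Scd2 and others named for a count or a range were chosen after their values were seen. Alternatives covered the choice of probe set, scaling, filter, model, blocks and left-out arrays. The joint omission of same-numbered arrays was added after seeing the data.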

Additional observations from a re-analysis of the deposited data

How the results depend on the processing

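In 123 of 160 recomputed counts of members past the threshold the count was within 1.5 times the value given, as were 170 of 172 sterol medians and 168 of 172 fatty acid medians within 1 SD between arrays. Most of the 160 counts belong to comparisons in which 0 members passed, and nearly all of these stayed at 0. At 4 weeks against control, which had 1 call, the count held in 11 of 21 alternatives. It held in 5 of 20 for β-catenin loss against SmoM2 alone and in 10 of 20 for β-catenin loss against control. No single gene called changed its direction. With the mean over probe sets, without the filter and with Y-linked signal as covariate, 0 members passed at 4 weeks, 0 for β-catenin loss against SmoM2 alone and 0 for β-catenin loss against control. Median centring gave 0 in both β-catenin comparisons. Array weights gave 0 at 4 weeks, 3 at 10 weeks and 0 for β-catenin loss against SmoM2 alone, and only the groups compared gave 1 at 10 weeks and 0 for β-catenin loss against SmoM2 alone. Under the replicate block 2 members passed at 4 weeks and 5 for β-catenin loss against SmoM2 alone, with 873 and 1347 genes in all. The block by experiment number gave 5 and, for β-catenin loss against control, 2, and no value at 3 days, whose label has no such number. Without the paired arrays of number 1 the 3 counts were 0, 0 and 0, and without those of number 2 the count for β-catenin loss against SmoM2 alone was 0. The fatty acid median of β-catenin loss against SmoM2 alone was -0.13 with the mean over probe sets, and that at 3 days 0.15 with the replicate block. When arrays were left out one at a time, members called ranged from 0 to 1 at 4 weeks, 0 to 2 for β-catenin loss against SmoM2 alone and 0 to 1 for β-catenin loss against control. The sterol median ranged from 0.079 to 0.39 at 1 week and from -0.16 to 0.19 at 4 weeks, and the fatty acid median from -0.80 to -0.21 for β-catenin loss against SmoM2 alone and from -0.012 to 0.52 for β-catenin loss against control. The adjusted p of Fads1 at 4 weeks ranged from 0.0294 to 0.251 and passed in 10 of 21 alternatives, that of Scd2 from 0.0117 to 0.710 in 8 of 20, and that of Me1 against control from 0.0159 to 0.296 in 10 of 20. These passes include the fit over all 16 arrays, which repeated the main one, since lone bulge arrays add nothing to the spread estimate. They also include the fit without probe sets that can bind more than 1 transcript, where the values of these 3 genes were unchanged. Over all genes tested, the count past the threshold ranged from 3 to 873 at 4 weeks, 0 to 1545 at 10 weeks, 2 to 1347 for β-catenin loss against SmoM2 alone and 1 to 169 for β-catenin loss against control. The causes were not tested. The Y-linked covariate used 3 genes, since a further planned one was not used here.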
